A study of Mus musculus with 8 samples.

Results

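The 9 genes described here are the mucins Muc1, Muc2, Muc3, Muc4, Muc13 and Muc20 and the trefoil factors Tff1, Tff2 and Tff3. They were chosen by name, as all probes on the array that carry these gene names, which gave 12 of 55681 probes and 9 of 35715 gene names. They were measured in ileum, the stretch of small intestine next to the colon, of female mice, on 8 Agilent arrays with 1 colour. Animals of both groups had the strain Rosa26rtTA/+, Hprt Myc-Tnk1tg, in which rtTA, an activator that works only with doxycycline, is made from the Rosa26 locus and can drive a Myc-tagged Tnk1 transgene at Hprt. Tnk1 encodes a non-receptor tyrosine kinase. The doxycycline group (4 arrays) was injected with 50 µg of doxycycline per g of body weight in 100 µl and the saline group (4 arrays) with 100 µl of 0.9% NaCl, and tissue was taken 24 hours later. The saline samples carry the transgenic strain but also a WT source name, the age of the animals is not given in the labels, and no group had doxycycline without the transgene. Effects of the drug and of TNK1 therefore cannot be told apart.

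Mucins are large proteins whose serine- and threonine-rich stretches carry dense O-linked sugars. Muc2 is the gel-forming mucin that goblet cells secrete to make intestinal mucus, whereas Muc1, Muc3, Muc4, Muc13 and Muc20 encode mucins with a membrane anchor, several of which line the brush border. Trefoil factors are small secreted peptides, stabilised by disulfide bonds, that are released with mucus and help epithelium to close over wounds. Tff3 is the trefoil factor of intestinal goblet cells, and Tff1 and Tff2 are best known from the stomach.

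The probe of Muc2, the member with the largest difference, and that of Muc3, the brush-border mucin whose probe lies in a repeated stretch, are shown because the readings of these genes rest on 60 bases each. Both were copied from the deposited files, and capitals mark the longest word that occurs more than once in the probe without overlap.
Muc2 probe: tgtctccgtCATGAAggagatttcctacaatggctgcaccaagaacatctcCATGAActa
Muc3 probe: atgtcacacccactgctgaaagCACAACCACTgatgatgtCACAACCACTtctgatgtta
The Muc2 probe lies on chromosome 7 at 148940000 to 148940059 (mm9, the build of the array annotation, plus strand). The Muc3 probe lies on chromosome 5 at 137626469 to 137626528 (minus strand) and holds a 10-base word in 2 copies. Of all 55681 probes, 1.38% hold a repeated word of that length, and the Muc3 signal may include other copies of the repeat. Exons and untranslated regions of that build were not used here.

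Across all genes, 13.8% passed the threshold (limma with Benjamini-Hochberg adjustment over 21362 genes, adjusted p 0.05), 5.94% as higher and 7.90% as lower with doxycycline. Over the 28626 probes kept for testing, 12.9% passed, 6.14% as higher and 6.71% as lower. Levels below are log2 of the scanner's processed intensity minus the 75th percentile of the array. Of 7 ileal marker genes, 6, such as the bile acid binder Fabp6, were well above background on all 8 arrays, and Fgf15 was on 7 of 8. Between the groups 0 of the 7 were called (limma; 3 at an unadjusted p under 0.05), and 2 were called lower without saline 4. Tnk1 was higher with doxycycline on its 5′-side probe (0.34 to 0.82 against -2.74 to -1.91, log2 difference 2.79, limma adjusted p = 4.16e-04) and not on its 3′-side probe (log2 difference -0.45, adjusted p = 0.143). The arrays had unequal noise: 56.1% to 58.3% of the spots were well above background on the doxycycline arrays and 41.3% to 44.7% on the saline arrays, so a dim probe could be read on the first and not on the second. The doxycycline arrays fill row 1 of the slide and the saline arrays row 2, so row and treatment cannot be told apart.

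Of the 9 members, 7 could be tested, and 2 fell with doxycycline while 0 rose. Those that fell were the secreted goblet cell products Muc2 and Tff3. Of the other 5 tested members, Muc3, Muc4, Muc13, Muc20 and Tff1, 0 passed limma's threshold in either direction, and 0 had an unadjusted p under 0.05 in the fit over genes (0.0532 to 0.717). The remaining members, Muc1 and Tff2, were not well above background on any array and were not tested.

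**Figure D1:**
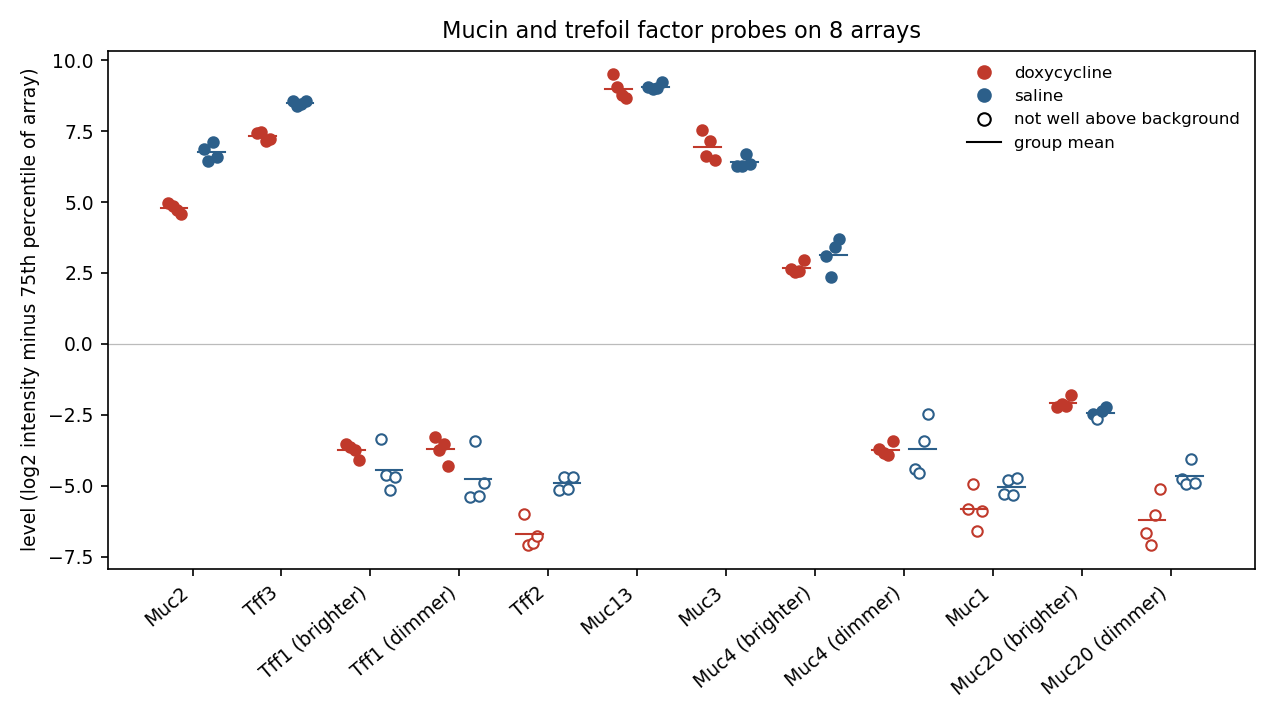
Level of each of the 12 probes of the 9 genes (vertical axis, log2 intensity minus the array's 75th percentile) on the 4 doxycycline arrays (red) and 4 saline arrays (blue), with open points where a probe was not well above background and lines at the group means. The red and blue points of Muc2 and of Tff3 do not overlap, and heights of different probes are not comparable.

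Muc2, the secreted gel-forming mucin, was lower on every doxycycline array. Its levels were 4.97, 4.85, 4.73 and 4.59 on doxycycline arrays 1 to 4 and 6.87, 6.44, 7.12 and 6.60 on saline arrays 1 to 4. The groups did not overlap, and the lowest saline array stood above the highest doxycycline array by more than the range within either group. The means were 4.78 ± 0.16 and 6.76 ± 0.30 (SD, n = 4 each), a log2 difference of -1.97 (SE 0.186, 95% interval -2.40 to -1.55, limma adjusted p = 5.57e-04). This is a 3.93-fold lower level with doxycycline, with an interval of 2.93-fold to 5.26-fold. An exact permutation test of the same values gave p = 0.0286, the smallest that 4 against 4 arrays allow. Before scaling, the processed intensity of the probe was 7210 to 9260 on the doxycycline arrays and 18300 to 36600 on the saline arrays. Only 0.824% of all tested genes had a lower difference than Muc2.

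Tff3, the trefoil peptide of goblet cells, was also lower on every doxycycline array. It read 7.43, 7.46, 7.14 and 7.24 on the doxycycline arrays and 8.55, 8.37, 8.45 and 8.55 on the saline arrays. The saline arrays lay within 0.2 of one another, and the groups were apart. The means of 7.32 ± 0.15 and 8.48 ± 0.09 (SD, n = 4 each) differ by -1.17 on the log2 scale (SE 0.141, 95% interval -1.49 to -0.85, limma adjusted p = 0.0015), a 2.24-fold lower level (interval 1.80-fold to 2.80-fold). The exact permutation p was again 0.0286. The Tff3 probe lies on chromosome 17 at 31262279 to 31262338 (mm9, minus strand), and 4.01% of all tested genes had a lower difference.

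Tff1 and Tff2 are the neighbours of Tff3 on chromosome 17 in the RefSeq gene table, in the order Tff3, Tff2, Tff1. Tff1 has a pair of probes, at 31298346 to 31298405 and 31298341 to 31298400 (mm9, minus strand), that share 55 of their 60 bases. Each registered well above background on all 4 arrays of the doxycycline group and on 0 saline arrays. The brighter probe read -3.52, -3.64, -3.73 and -4.08 with doxycycline and -3.36, -4.62, -5.15 and -4.70 with saline. The other read -3.27, -3.75, -3.51 and -4.31 with doxycycline and -5.40, -3.43, -5.37 and -4.89 with saline. The nearly identical probes thus put different saline arrays highest, saline 1 on one and saline 2 on the other. The log2 differences were 0.72 (SE 0.350, adjusted p = 0.199, limma over genes) and 1.06 (SE 0.437, adjusted p = 0.137, limma over kept probes, unadjusted p = 0.0377). No fold is given for Tff1, because its doxycycline signal lay below what the noisier saline arrays could register. The test of Tff1 sets doxycycline readings against saline readings that were not well above background, so it cannot decide whether Tff1 differed. Without saline 1 Tff1 was called higher (log2 difference 1.08, limma adjusted p = 0.0257). With normexp background it turned to -0.28 (limma adjusted p = 0.165), and with a common floor the difference was 0.00.

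Tff2, which the mm9 annotation leaves unmapped, read -5.98, -7.09, -7.00 and -6.76 with doxycycline and -5.13, -4.67, -5.13 and -4.68 with saline, not well above background on any of the 8 arrays. These readings are at the noise level of each array, whose lowest processed intensity was 2.01 to 2.37 on the doxycycline arrays and 6.22 to 9.21 on the saline arrays. With no filter on dim probes Tff2 was called lower by 1.80 on the log2 scale, a setting in which the median gene also moved, by -0.33, and in which 11809 genes were called lower.

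Among the membrane mucins 0 of 4 tested were called (limma). Muc13, a membrane mucin of the gut surface, read 9.50, 9.04, 8.78 and 8.66 with doxycycline and 9.06, 8.98, 9.01 and 9.24 with saline. The saline arrays lay inside the range of the doxycycline arrays. The means were 9.0 ± 0.37 and 9.07 ± 0.12 (SD, n = 4 each), with a log2 difference of -0.08 (SE 0.201, 95% interval -0.53 to 0.38, limma adjusted p = 0.833). The interval excludes a fall as large as that of Muc2 or Tff3. The small difference changed sign with normexp background (0.12), with quantile normalization (0.01) and without doxycycline 4 (0.04). The probe lies on chromosome 16 at 33819909 to 33819968 (mm9, plus strand).

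Muc3, another membrane mucin of the intestine, did not pass the threshold. It read 7.52, 6.64, 7.16 and 6.47 with doxycycline and 6.26, 6.27, 6.71 and 6.35 with saline. Doxycycline 1 and 3 stood above all saline arrays, while doxycycline 2 and 4 lay below saline 3. The means of 6.95 ± 0.48 and 6.40 ± 0.21 (SD, n = 4 each) gave a log2 difference of 0.55 (SE 0.248, 95% interval -0.01 to 1.11, limma adjusted p = 0.166). Doxycycline 1 held the highest reading of both Muc3 and Muc13.

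Muc4 and Muc20 are neighbours on chromosome 16 that overlap in the RefSeq gene table, and their probes interleave on opposite strands. The brighter Muc4 probe (32782278 to 32782337, mm9, plus strand) read 2.63, 2.53, 2.57 and 2.96 with doxycycline and 3.1, 2.36, 3.42 and 3.71 with saline. Muc4, a large membrane mucin that can bind ErbB2, was thus lowest on saline 2, and the other 3 saline arrays lay above all doxycycline arrays. Its log2 difference of -0.48 (SE 0.279, 95% interval -1.11 to 0.15) missed the threshold (limma adjusted p = 0.277). Without saline 2 it was -0.74 and passed (adjusted p = 0.0471). The second Muc4 probe (32774896 to 32774955) registered with doxycycline on 4 arrays but with saline on 0, and read -3.73 ± 0.22 and -3.72 ± 0.96 (SD, n = 4 each), so that it gives no fold.

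Muc20, a membrane mucin best known from kidney, read -2.22, -2.12, -2.19 and -1.80 with doxycycline and -2.45, -2.64, -2.37 and -2.22 with saline on its brighter probe (32786143 to 32786202, minus strand). The groups were apart, but by less than 0.01 between doxycycline 1 and saline 4, and 3 of 4 saline arrays were well above background. The log2 difference was 0.34 (SE 0.161, limma adjusted p = 0.186), and it was -0.03 with normexp background. The second Muc20 probe (32777512 to 32777571, minus strand), drawn from another transcript variant, and the probe of Muc1, a membrane mucin of most glandular epithelia (chromosome 3, 89034965 to 89035024, plus strand), were not well above background on any array. They read -7.08 to -4.04 and -6.59 to -4.73 over the 8 arrays. Among all genes tested the groups were apart for 21.9%, lower in 13.0% and higher in 8.83%, as they were here for Muc2, Tff3 and Muc20.

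**Figure D2:**
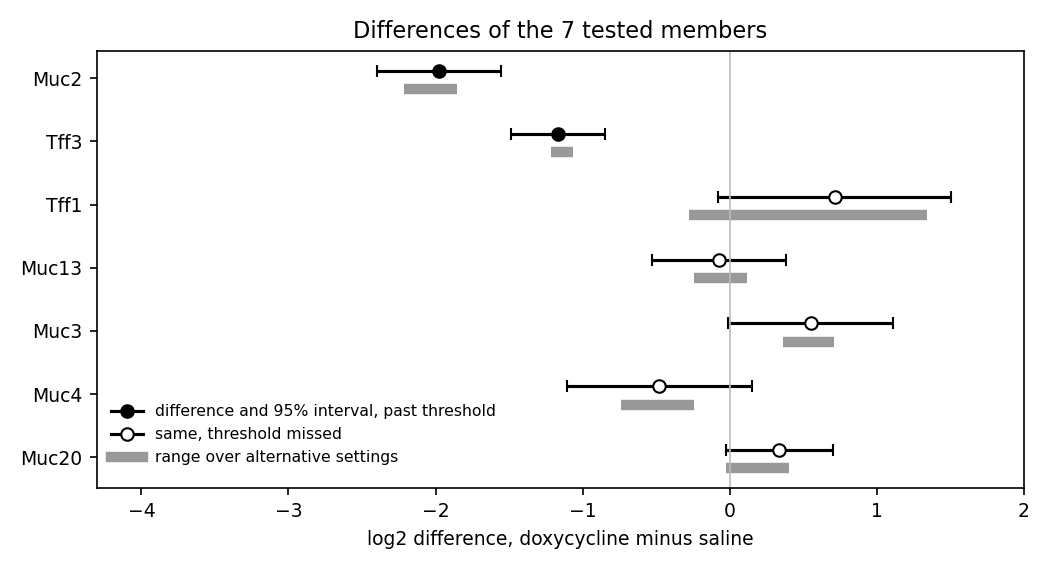
Log2 difference, doxycycline minus saline, of the 7 members that could be tested (points with 95% intervals from limma, filled where the threshold was passed), and below each the range over the alternative settings (grey). The grey bars of Muc2 (-2.21 to -1.85) and Tff3 (-1.21 to -1.06) stay below 0, and those of Tff1, Muc13 and Muc20 cross it.

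Whether the members changed by unequal amounts was tested on the gap between pairs of members within each array. Over all 21 pairs of the 7 tested members, 0 passed an exact permutation test after adjustment, with 11 pairs at the smallest unadjusted p the design allows (0.0286, adjusted p = 0.0545). Over the 5 members that were well above background on all 8 arrays, Muc2, Tff3, Muc13, Muc3 and Muc4, 6 of 10 pairs passed (exact permutation p = 0.0286, adjusted p = 0.0476). The shift of Muc2 was lower than that of Muc3 by 2.53 on the log2 scale (SE 0.215), than that of Muc13 by 1.90 (SE 0.205), than that of Muc4 by 1.5 (SE 0.301) and than that of Tff3 by 0.81 (SE 0.156). Tff3 in turn shifted below Muc3 by 1.72 (SE 0.273) and below Muc13 by 1.09 (SE 0.143). Tff3 and Muc4 missed the threshold (difference 0.69, SE 0.295, exact permutation p = 0.0571, adjusted p = 0.0635), as did the 3 pairs among Muc3, Muc4 and Muc13. These gaps do not depend on how the arrays were scaled, because any factor common to an array cancels. The calls rest on the set of pairs compared: the unadjusted p is the same, and 6 of 10 pairs reached it here against 11 of 21 before.

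**Figure D3:**
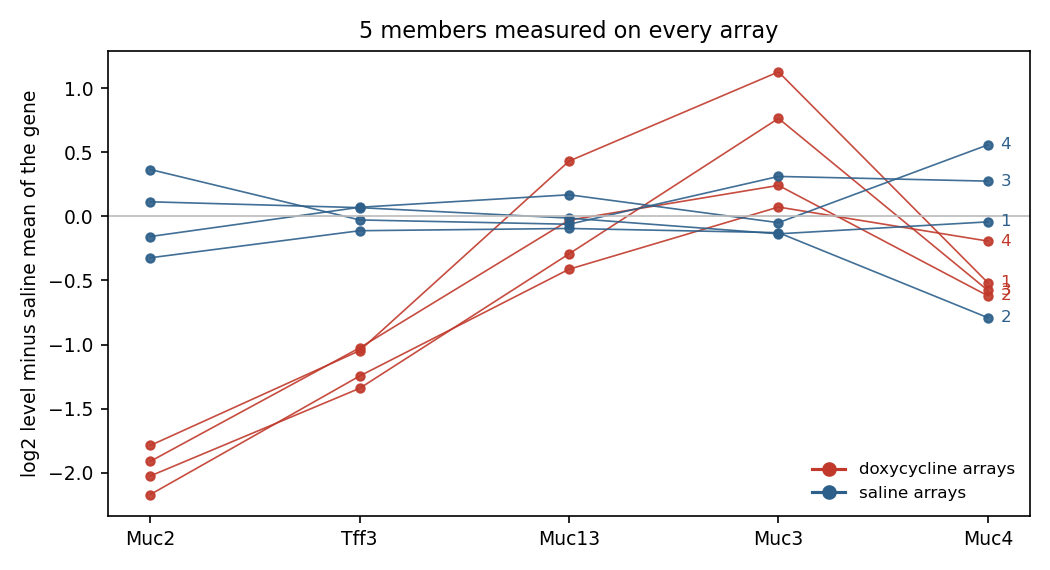
Level of the 5 members that were well above background on every array, relative to the saline mean of each gene (vertical axis, log2), with 1 line for each of the 4 doxycycline (red) and 4 saline (blue) arrays and the replicate number at the right. All red lines lie below all blue lines at Muc2 and Tff3. At Muc13 doxycycline 1 lies above the blue lines, doxycycline 2 among them and doxycycline 3 and 4 below, and at Muc3 doxycycline 1 and 3 lie above them.

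Genes of the same cells were taken from lists that leave out the 9 members. Of 12 goblet cell markers, 10 fell and 0 rose, with a median log2 difference of -1.53 against 0.02 for all genes tested. Bcas1 was 5.61-fold, the kallikrein gene Klk1 6.49-fold and the tryptase gene Tpsg1 5.24-fold lower (limma adjusted p = 3.39e-04, 4.69e-04 and 5.98e-04). Klk1 has near-identical relatives whose RNA its probe may also bind. The summed level of these 12 markers was 643 to 1000 on the doxycycline arrays and 1540 to 1980 on the saline arrays, in multiples of each array's 75th percentile, and all 12 were above background on at least 1 array. In whole tissue, fewer goblet cells and less RNA per goblet cell cannot be told apart.

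Genes listed as partners of the goblet cell granule and mucus, not all of which encode products found there, were mostly lower as well. Of the 25 genes in this list, which include 11 of the 12 markers above, 18 fell and 1 rose, with a median of -1.37. Capn9, a calpain of the digestive tract, was 7.80-fold lower, and the secreted phospholipase gene Pla2g10 was 5.07-fold lower (limma adjusted p = 2.08e-04 and 3.70e-04). Fcgbp, a mucus protein that binds Tff3, read 6.67, 6.53, 6.01 and 6.13 with doxycycline and 8.01, 8.01, 8.23 and 8.16 with saline, 3.40-fold lower (adjusted p = 7.63e-04). The gene that rose was Retnlb, a goblet cell peptide with antibacterial activity, at 2.94-fold (adjusted p = 0.00192).

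Transcription factors listed for the goblet lineage, not all of which are particular to goblet cells, fell in 9 of 18 cases and rose in 0. Their median was -1.11. The falls include the broader factors Cdx2 (log2 difference -1.14) and Sox9 (-1.28). Klf4 (0.43, limma adjusted p = 0.294) and Foxa1 (-0.16, adjusted p = 0.587) were not called. Gfi1, which favours goblet and Paneth fates, was 2.68-fold, Spdef, which drives goblet cell maturation, 3.63-fold and the forkhead factor Foxa2 3.17-fold lower (limma adjusted p = 0.00122, 0.0013 and 0.00219). Spdef read 2.63, 2.70, 2.13 and 2.03 with doxycycline and 4.3, 4.07, 4.6 and 3.97 with saline. Atoh1, which secretory cells need to form, was named after its values were seen and was 8.25-fold lower (adjusted p = 0.00382).

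Some of these factors are known to bind intestinal promoters, and the 250 bases before the RefSeq start of Muc2 are shown because Muc2 is the mucin that fell. This window (chr7:141690090-141690339, GRCm38.p6, plus strand) comes from RefSeq, and capitals mark matches to the motifs searched.
Muc2 promoter: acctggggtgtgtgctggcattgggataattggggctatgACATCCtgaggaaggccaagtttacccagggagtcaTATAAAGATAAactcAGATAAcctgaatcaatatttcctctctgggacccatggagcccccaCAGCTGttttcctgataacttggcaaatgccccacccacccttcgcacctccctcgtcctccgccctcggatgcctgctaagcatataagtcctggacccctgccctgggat
Both strands were searched for the TATA box TATAAA, the GATA factor motif AGATAA, the E-box CAGCTG, a class of site that Atoh1 binds, the Spdef-type motif GGATGT, the Foxa motif TGTTTAC and the Cdx motif CATAAA. The Muc2 window held 1 TATAAA at 174 to 169 bases before the start and 2 AGATAA, at 169 to 164 and 159 to 154 bases. The first AGATAA shares 1 base with TATAAA. Variants such as TATAAG, which the window holds closer to the start, were not searched. Whether the TATAAA found acts as a TATA box was not tested. The window also held 1 CAGCTG that begins 112 bases before the start, and 1 GGATGT on the minus strand at 210 to 205 bases. Among the 32851 RefSeq windows of that length, 12.4% held TATAAA, 9.99% AGATAA, 13.0% CAGCTG, 9.46% GGATGT, 3.17% TGTTTAC and 10.8% CATAAA. Of the 9 members, 6 matched the promoter table. Matches of the same motifs were found in the windows of Muc1 (TATAAA), Muc4 (TATAAA and GGATGT), Muc20 (TGTTTAC) and Muc13 (CATAAA). Such matches are letters in the sequence, and the arrays did not measure binding.

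The enzymes that build O-linked sugars on mucins held more falls than rises. Of 32 tested, 9 fell and 2 rose, with a median of -0.34. The rises were near the share of all genes called higher (5.94%), and 7.90% of all genes were called lower. Without saline 2 and 4 together 5 fell. The rises numbered 4 without saline 4 and 1 without any other single array. B4galnt2, which adds a terminal N-acetylgalactosamine, was 2.98-fold lower, B3gnt6, the core 3 synthase of intestinal mucin, 2.35-fold lower, and Galnt4, which starts the chains, 2.32-fold lower (limma adjusted p = 0.00169, 0.00567 and 0.00592). B3gnt7 rose 2.08-fold (adjusted p = 0.0119). The branching enzyme gene Gcnt3 was 1.55-fold higher (adjusted p = 0.0440), and its call was lost when any one of 7 arrays was dropped (adjusted p up to 0.123).

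Genes for mucin assembly, unpacking and shedding held 2 falls and 1 rise among 20 tested, with a median of -0.42. These counts were near the shares over all genes, of which 7.90% were called lower and 5.94% higher. The falls numbered 4 without doxycycline 1 or saline 4, 3 without doxycycline 2, and 1 without doxycycline 3, doxycycline 4, saline 1 or saline 3. The bicarbonate transporter Slc4a4 was 2.03-fold lower (limma adjusted p = 0.00858), and the autophagy gene Atg5 1.68-fold lower, which did not hold when any one of 5 arrays was dropped (adjusted p up to 0.0958). The sodium-proton exchanger Slc9a3 was 2.82-fold higher (adjusted p = 0.0168). It missed the threshold with the mean over its probes (0.74 on the log2 scale, limma adjusted p = 0.239) and without saline 3 (adjusted p = 0.0537).

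Partners and proposed receptors of trefoil factors held 1 fall, that of Fcgbp, and 3 rises among 7 tested, with a median of 0.57. Those that rose were F2rl1 (1.82-fold, limma adjusted p = 0.0190), a protease-activated receptor, and the chemokine receptors Ackr3 (2.04-fold, adjusted p = 0.0376) and Cxcr4 (5.09-fold, adjusted p = 0.0499). The rises numbered 4 without doxycycline 1, 2 without saline 2, 0 without saline 1 or saline 3, and 1 without any other single array. Cxcr4 read 0.07 on saline 2 against -3.03 to -2.43 on the other saline arrays, and its fold was 8.21 without that array and 2.96 with normexp background. The Cxcr4 call was lost without any one of 6 other arrays (adjusted p up to 0.125), and with quantile normalization, the authors' deposited values or a common floor (limma adjusted p = 0.0558, 0.0504 and 0.102). The Ackr3 call was lost when any one of 7 arrays was dropped (adjusted p up to 0.0996) and with a common floor (limma adjusted p = 0.0623), and that of F2rl1 without saline 1 or saline 3 (adjusted p = 0.0632 and 0.0571). The gastrokine genes Gkn1 and Gkn2, whose products pair with trefoil factors in the stomach, were not above background on any array.

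Signals known to regulate mucin genes held 6 rises and 0 falls among 17 tested, with a median of 0.31. With arrays left out the rises numbered 5 to 7. Areg, an epidermal growth factor receptor ligand, rose 10.6-fold, and the receptor chain Il4ra 2.45-fold (limma adjusted p = 9.19e-05 and 0.00215). The cytokine gene Il6 registered on 0 of the saline arrays and was called higher (adjusted p = 6.20e-04). Set against the lowest signal well above background on each saline array, its mean was 2.31-fold higher. This value is not an estimate of the fold, includes no sampling error and holds for this background setting only. Il6 was 2.18-fold higher with normexp background, 19.3-fold with quantile normalization and 1.94-fold with a common floor, where the call was lost (limma adjusted p = 0.119). Il4, Il13 and Il25 were not above background on any array.

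Among 10 other tested genes for mucins and mucin-like proteins, 2 were called higher and 0 lower, with a median of 0.33. Glycam1, which encodes an endothelial sialomucin, was called higher (limma adjusted p = 0.00303), but its fold rests on saline readings of which 1 of 4, that of saline 2, was well above background. The fold was 38.5, and it was 8.06 with normexp background, 9.81 with a common floor, 61.6 with quantile normalization and 62.9 without saline 2, with the call kept in each. Prg4, a lubricating proteoglycan, was called higher (adjusted p = 0.00892) but registered on 0 of the saline arrays and gives no fold. Its call was lost with normexp background (log2 difference 0.29, limma adjusted p = 0.203) and with a common floor (adjusted p = 1). Muc5ac, the gel-forming mucin of the stomach and a neighbour of Muc2, read -4.61 with doxycycline and -3.89 with saline on average. It was not called (limma adjusted p = 0.428). It was well above background on 3 doxycycline arrays and on 1 saline array, saline 4 (-2.24), so this test cannot decide whether Muc5ac differed.

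**Figure D4:**
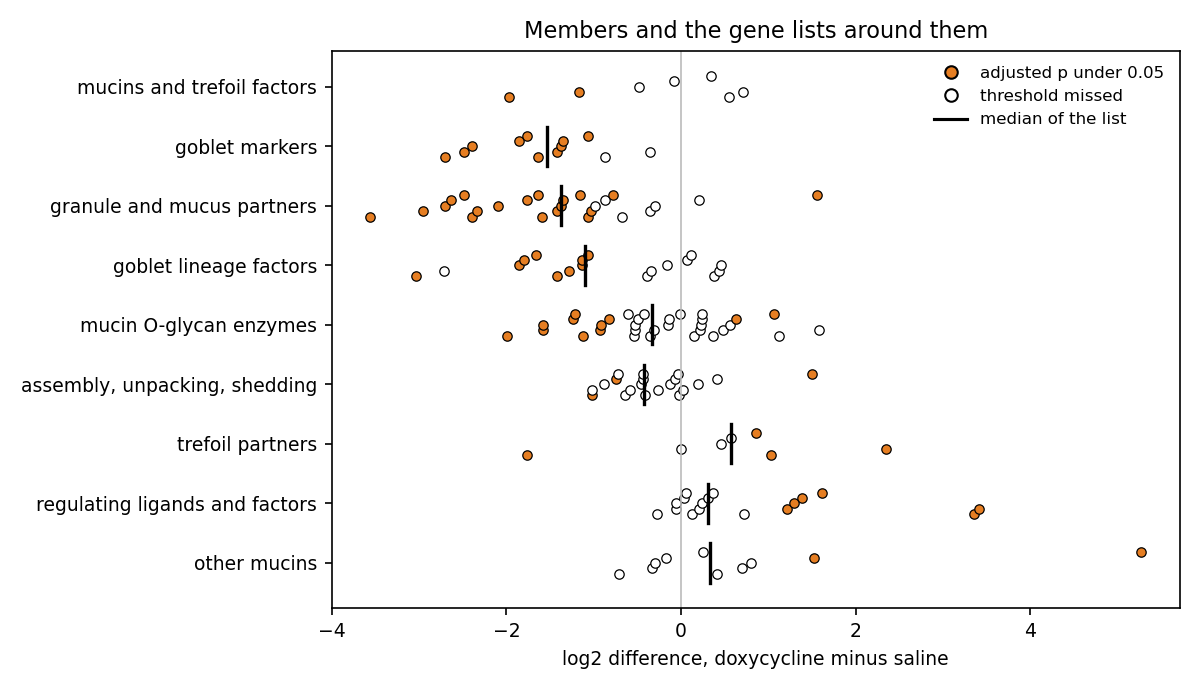
Log2 difference, doxycycline minus saline (horizontal axis), of the 7 tested members and of the tested genes in 8 lists, with filled points past the threshold (adjusted p under 0.05) and black bars at each list's median. The medians of the goblet marker, granule and lineage lists lie at -1.53, -1.37 and -1.11. The members spread from -1.97 (Muc2) to 0.72 (Tff1, whose saline readings were not well above background).

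Markers of other cells were called in some lists and not in others. Over all genes tested, 5.94% were called higher and 7.90% lower. Of 15 absorptive enterocyte markers 1 rose and 0 fell (median 0.02, summed level 1230 to 1920 with doxycycline and 1050 to 1560 with saline), with 0 rises without doxycycline 1, doxycycline 3 or saline 1 and 2 without saline 2. Of 9 markers common to all epithelial cells, 2 fell and 0 rose (median -0.13, 1060 to 1260 against 1230 to 1410), with 0 falls without doxycycline 3, doxycycline 4 or saline 3 and 1 without saline 1. Of 9 enteroendocrine markers 5 fell and 0 rose (median -1.44, 40.1 to 79.5 against 127 to 180). Of 8 crypt stem cell markers 4 fell and 0 rose (median -1.01, 57.9 to 64.8 against 77.8 to 111). Of 6 tuft cell markers 2 fell and 1 rose (median -0.50, 9.09 to 16.3 against 9.72 to 17.7), with 2 falls without doxycycline 1 or saline 4 and 0 without any other single array, and 0 rises without saline 1 or saline 3. The 6 Paneth cell markers held 0 calls (limma; median -0.17). The 9 leukocyte markers had a median of 0.80 with 0 calls (limma; 4 higher without saline 2), and saline 2 stood apart there with a summed level of 83.0 against 32.4 to 43.9 on the other saline arrays. Of 5 neutrophil markers tested 3 rose and 0 fell (median 2.59, summed level 104 to 140 against 100 to 106), and 1 rose without doxycycline 3, doxycycline 4, saline 1, saline 3 or saline 4. One that rose, S100a8, registered on 0 of the saline arrays (limma adjusted p up to 0.143 over the alternatives). Most of the neutrophil sum came from Csf3r, which was not called (mean level 6.93 with doxycycline and 6.67 with saline, limma adjusted p = 0.282). Of 11 stomach and pyloric gland markers on the array, 6 were not above background on any array. Their part in the differences of the members was not tested. Without saline 2 and 4 together, Muc2 and Tff3 were still the 2 members called lower.

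The genes whose profile over the 8 arrays was most like that of Muc2 were Gamt, which makes creatine, Gstk1, a glutathione transferase, Pla2g2c, Klk1b21 and Spdef. Their root-mean-square distance from Muc2, with each gene set to its own mean, was 0.0951, 0.111, 0.14, 0.141 and 0.158 on the log2 scale. Pla2g2c was dim, at most -3.75 with doxycycline, and its log2 difference of -1.9 depended on how dim readings were treated. Under a common floor it shrank to -0.61, where Muc2 kept -1.97. Under normexp correction Pla2g2c gave -1.02 and Muc2 -1.90. Whether Pla2g2c stays close to Muc2 under those alternatives was not tested. For Tff3 the nearest genes were Serf1 (0.0607), Etl4 (0.0697), the adenylate kinase Ak3 (0.0856), Kazald1 (0.0856) and the reductase Akr7a5 (0.0863). Muc2 and Tff3 lay 0.447 apart by the same measure. These distances describe 8 arrays in which the 2 groups make up most of each profile.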

How the data were processed

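Ileal RNA (200 ng per labelling, per the labels) was hybridised to Agilent 1-colour arrays. The deposited scanner files hold linear intensity. They were written by Agilent Feature Extraction, version 10.7.3.1, per the submitters' processing notes. The processed intensity is background-subtracted, detrended and replaced by a surrogate where not above noise, per the file headers. The authors also deposited a table of log2 values, in which each array's column equals log2 processed intensity minus a constant, with column medians of -3.77, -3.92, -3.83 and -3.81 (doxycycline 1 to 4) and -3.97, -3.70, -3.79 and -3.86 (saline 1 to 4). Its scale, centring and direction are thereby known. It served as an alternative only.

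Control spots and spots with an outlier mark (169 to 259 on each array) were dropped, and repeated spots of 1 probe averaged. No probe spot was saturated. Log2 processed intensity was reduced by each array's 75th percentile. Probes well above background on at least 4 of 8 arrays were kept (28626), and the brightest kept probe stood for its gene (21362 genes). The comparison used limma, version 3.58.1, under R 4.3.3 (lmFit, eBayes, two-sided, Benjamini-Hochberg over all genes, threshold 0.05), and second probes in the same model over all kept probes. The model was tested on simulated data. Alternatives changed the background correction, normalization, probe filter, choice of probe, noise floor and array weights, added a replicate block, or left out arrays. Permutation tests were exact and two-sided. Where a whole group lay below background, a fold is only a bound, computed against the lowest signal well above background on each array. Since the labels do not tie arrays to separate animals, the p-values cover only variation among these samples, which may be technical. Their number, 4 per group, limits the precision.

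The members, gene lists, tests and alternatives were chosen with earlier results of these data known. Genes beyond the members were named by rule: in each list around mucins and in the goblet marker list, the 3 called genes with the smallest p in each direction, and the 5 genes nearest to Muc2 and to Tff3, without clone names, predicted genes or sex-linked genes. The replicate numbers of the titles did not pair the samples: the correlations of same-numbered deviations were 0.00601, -0.0439, 0.113 and 0.0125.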

Additional observations from a re-analysis of the deposited data

Results flagged for a closer look

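Of 94 sets of 4 arrays examined (members, named list genes and nearest genes, each by group), 2 held an array far from the other 3, where chance gives about 1 in 20. Glycam1 read -2.38 on saline 2 and -5.37 to -4.90 on the other saline arrays (gap 0.842 of the range). Prg4 read -4.06 on doxycycline 4 and -3.08 to -3.02 on the other doxycycline arrays (0.936 of the range). Of the 24 sets of the members' own probes, 0 held such an array.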

How the results depend on the processing

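The falls of Muc2 (log2 difference -2.21 to -1.85) and Tff3 (-1.21 to -1.06) kept their direction and their call in all 18 alternatives run (highest limma adjusted p 0.00911 and 0.0177). Muc3 kept its direction and stayed uncalled in all 18. Muc13 turned positive with normexp background (0.12), quantile normalization (0.01) and without doxycycline replicate 4 (0.04; -0.24 to 0.04 over single arrays left out), Muc20 turned to -0.03 and Tff1 to -0.28 with normexp background. In all 5 the cause was not tested. Leaving out single arrays gave 0 to 1 members called higher. With no filter on dim probes 4 member probes were called instead of 2, the others being Tff2 and the dimmer Muc20 probe, which were not above background on any array. With probes well above background on all 8 arrays, 6 pairs of members were unequal instead of 0, because a larger share of the pairs compared had the smallest p. Genes called higher and lower numbered 1268 and 1687, against 2929 and 3400 when arrays were weighted and 1850 and 11809 when dim probes were kept. Without saline 2 and 4 together 1027 were lower. Leaving out single arrays gave 648 to 1541 higher and 729 to 1870 lower. With the replicate block 787 genes were called higher and 905 lower, and the call of no member changed, but the replicate numbers do not pair these samples. Dim probes are limited by the noise of the saline arrays, where the lowest signal well above background was 31.3 to 46.5, against 10.4 to 12 on the doxycycline arrays.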
